A study of Mus musculus with 9 samples.

Results

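Very broad peaks of open chromatin were described in 3 mouse osteosarcoma cell lines. The peak lists of all 9 libraries were merged wherever peaks overlapped by 1 bp or more, which gave 124230 regions. A merged region was kept when it held a single called peak of 3000 bp or more in 2 or more libraries, and 146 regions (0.118%) met this rule. The width of the peaks therefore chose these members, and widths and counts of broad peaks are given as a description, without a test. The assay was paired-end ATAC-seq, in which the Tn5 transposase inserts sequencing adapters into accessible DNA. The R172H line carried 1 p53 allele with the R172H substitution and no other (p53R172H/-), the R245W line likewise carried p53R245W/-, and the p53-null line was p53-/-. All were derived from mouse osteosarcomas and grown in the same medium, each with 3 libraries. With 1 line per genotype, the genotype and the line cannot be told apart. Nothing in the labels tells if the replicates are separate cultures, so p-values measure only the spread between these libraries, which may be technical.

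p53, encoded by Trp53, is a transcription factor that halts the cell cycle or triggers cell death after DNA damage, and it is mutated or lost in many osteosarcomas. The R172H and R245W substitutions lie in its DNA-binding domain. Most stretches of accessible chromatin are short, covering a promoter or an enhancer with few nucleosomes displaced. Long accessible stretches are known from CpG-rich promoters of developmental regulators and signalling genes, and from clusters of enhancers next to each other.

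The promoters of 5 members are shown because they span the patterns described further on: the gene that differs by genotype, a member broad in every library, an AP-1 gene, a member broad in 2 lines, and an imprinted gene broad in 1 line. Each runs 250 bases before to 50 after the annotated start site, from RefSeq on GRCm38.p6, 5′ to 3′ on the gene's strand, with every CG dinucleotide in capitals. The windows are chr11:69580109-69580408 (plus strand) for Trp53, chr5:3343643-3343942 (plus) for Cdk6, chr4:95052173-95052472 (minus) for Jun, chr5:47982905-47983204 (plus) for Slit2 and chr7:6730370-6730669 (minus) for Peg3.
Trp53: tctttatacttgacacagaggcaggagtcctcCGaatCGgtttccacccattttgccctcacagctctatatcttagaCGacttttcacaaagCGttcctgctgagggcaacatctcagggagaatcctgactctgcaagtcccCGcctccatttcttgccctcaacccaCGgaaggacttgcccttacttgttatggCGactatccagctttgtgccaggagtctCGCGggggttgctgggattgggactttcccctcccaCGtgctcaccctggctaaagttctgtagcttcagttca
Cdk6: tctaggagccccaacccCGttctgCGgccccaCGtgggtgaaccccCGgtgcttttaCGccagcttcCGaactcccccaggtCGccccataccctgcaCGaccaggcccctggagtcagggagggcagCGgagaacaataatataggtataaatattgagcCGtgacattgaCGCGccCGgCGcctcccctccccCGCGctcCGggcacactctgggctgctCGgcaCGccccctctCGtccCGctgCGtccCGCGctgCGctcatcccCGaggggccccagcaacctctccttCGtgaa
Jun: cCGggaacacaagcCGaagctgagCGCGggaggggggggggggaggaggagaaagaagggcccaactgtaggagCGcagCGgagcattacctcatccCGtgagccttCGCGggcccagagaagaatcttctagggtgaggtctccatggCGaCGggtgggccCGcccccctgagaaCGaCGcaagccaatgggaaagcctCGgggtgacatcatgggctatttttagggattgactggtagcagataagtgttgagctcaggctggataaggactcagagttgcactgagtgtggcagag
Slit2: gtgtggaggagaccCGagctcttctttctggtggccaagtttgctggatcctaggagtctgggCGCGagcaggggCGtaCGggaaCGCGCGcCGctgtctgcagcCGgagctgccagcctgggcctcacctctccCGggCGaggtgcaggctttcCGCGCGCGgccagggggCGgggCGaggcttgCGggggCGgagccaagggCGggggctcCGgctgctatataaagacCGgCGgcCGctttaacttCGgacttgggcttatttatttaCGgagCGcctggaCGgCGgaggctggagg
Peg3: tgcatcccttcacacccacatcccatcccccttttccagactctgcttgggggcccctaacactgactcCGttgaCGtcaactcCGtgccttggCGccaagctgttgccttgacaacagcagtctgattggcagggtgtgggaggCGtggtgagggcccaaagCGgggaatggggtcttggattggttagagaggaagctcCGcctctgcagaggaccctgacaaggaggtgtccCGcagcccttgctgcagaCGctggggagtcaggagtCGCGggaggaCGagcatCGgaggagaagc
The window held 10 CG dinucleotides at Trp53, 27 at Cdk6, 15 at Jun, 30 at Slit2 and 13 at Peg3.

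The broad form was seen in 68, 80 and 61 members in the R172H libraries (replicates 1, 2 and 3), in 84, 86 and 89 in the R245W libraries, and in 65, 77 and 58 in the null libraries. The R245W line thus had the most broad members, with no overlap with the other lines, while R172H and null overlapped. Means were 69.7 ± 9.61 members for R172H, 86.3 ± 2.52 for R245W and 66.7 ± 9.61 for null (SD, n = 3 each). Relative depth, judged by the background pile-up, also differed between the lines, with null overlapping both others. The most frequent background pile-up at a summit, a number of stacked reads recovered from the peak caller's fold and p, was 4.77, 5.36 and 4.81 in R172H, 5.65, 6.39 and 6.14 in R245W, and 5.02, 5.80 and 5.40 in null. Replicate 2 of R172H and replicate 2 of null were the deepest of their lines and also had the most broad members of their lines. In R245W, replicate 2 was the deepest with 86 broad members and replicate 3 had the most, 89. Libraries of like depth also differed, with 80 broad members in R172H replicate 2 at 5.36 reads and 58 in null replicate 3 at 5.40 reads. The part of depth in the number of broad members was not tested.

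**Figure D1:**
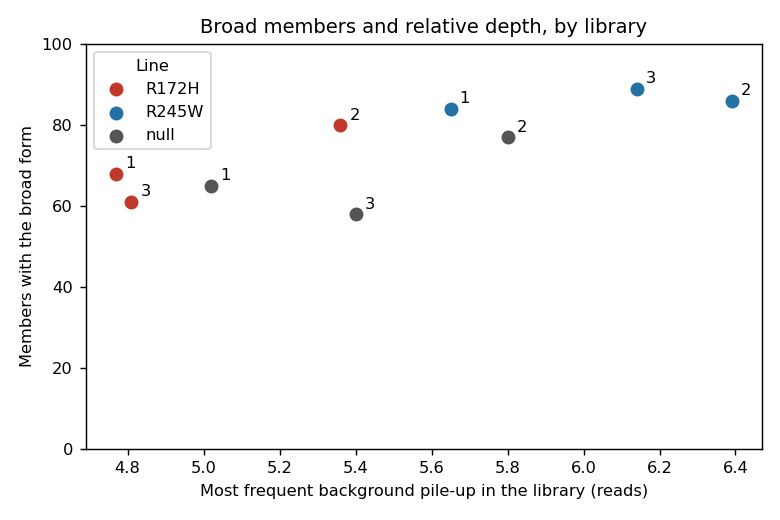
Number of members with the broad form (vertical axis, members of 146) against the most frequent background pile-up of each library (horizontal axis, reads), with 1 point per library and its replicate number. The 3 R245W libraries lie at the upper right, with 84 to 89 broad members at 5.65 to 6.39 reads.

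Most members were open in every library, and what differed was the form. Of the 146 members, 144 (98.6%) had a peak in all 9 libraries, against 36473 of all 124230 regions (29.4%). The exceptions were Cyp2d22 and Ranbp3l. Across the 1314 pairs of a member and a library, 668 were broad, 320 held 1 narrower peak, 317 held several peaks and 9 held none. Splitting into several peaks thus made up 49.1% of the 646 pairs that were not broad. The largest gap in a split pair had a median of 424 bp (10th to 90th percentile 253 to 943 bp, smallest 220 bp), and in 248 of the 317 split pairs the first and last edges still lay 3000 bp or more apart. The members had a median length of 3398.5 bp (3028 to 4757 bp), against 723 bp over all regions. For the 15 members broad in R172H alone, covered length was at the median 82.7% of that in R172H in the R245W line and 67.9% in the null line.

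Of the 146 members, 21 were broad in all 9 libraries. Another 15 were broad in the 3 R172H libraries and in none of the other 6 libraries, 10 in the 3 R245W libraries alone, and 5 in the 3 null libraries alone. R172H and R245W together without null held 7, R172H and null without R245W held 2, and R245W and null without R172H held 5. The other 81 members were broad in 1 or 2 libraries of at least 1 line. Members broad in 2 or 3 libraries of 1 line and in 0 of the 6 others numbered 24 for R172H, 24 for R245W and 12 for null. The counts for a single line depended on the libraries: without R245W replicate 3, 16 members were broad in R245W alone, and without null replicate 3, 10 were broad in null alone. With gaps of up to 500 bp joined, a setting chosen after seeing the data, the counts were 19 for R172H alone, 25 for R245W alone and 10 for null alone. When the 85 widest peaks of each library were called broad, a planned setting, they were 14 for R172H alone, 7 for R245W alone and 7 for null alone. The R245W and null counts were then equal.

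**Figure D2:**
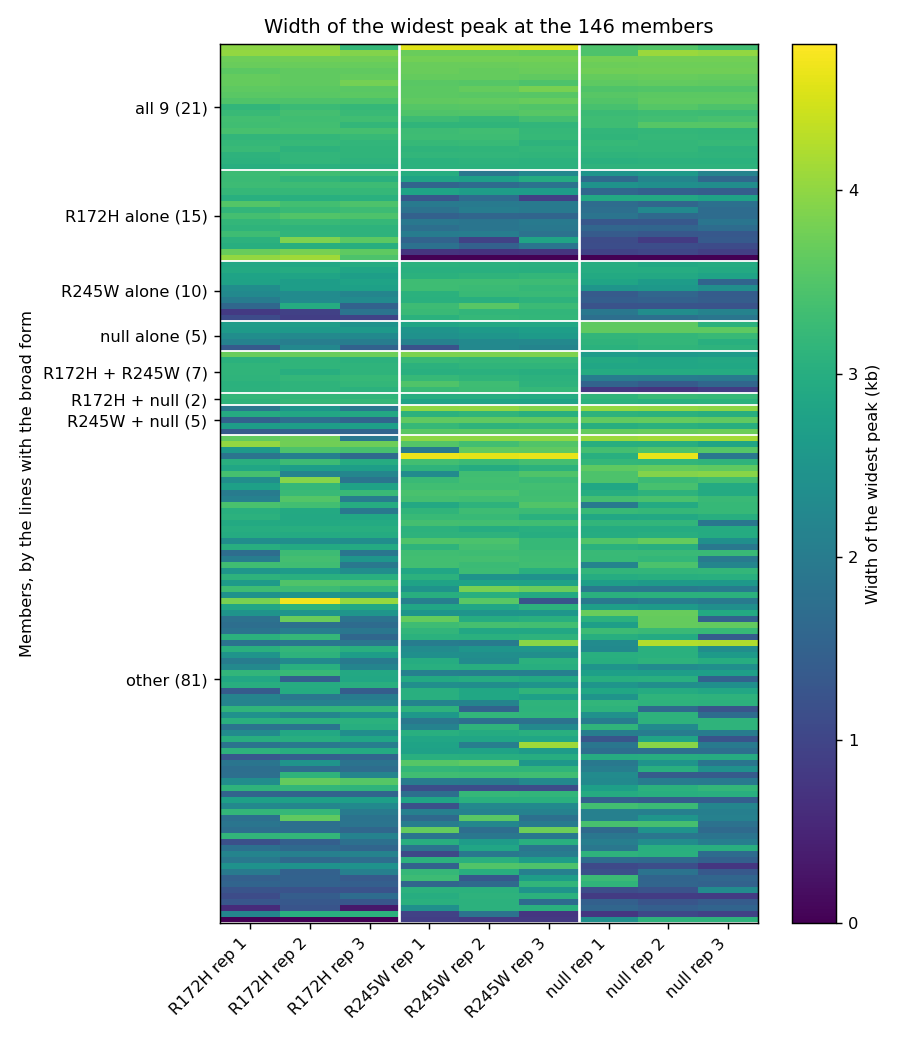
Width of the widest peak (colour, kb) at each of the 146 members (rows) in the 9 libraries (columns, R172H, R245W, null), grouped by the lines in which all 3 libraries had a peak of 3000 bp or more. The 21 members at the top are broad in every column. The 15 members broad in R172H alone are under 3000 bp in the other 6 columns by the definition of the group.

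The broad form recurred between libraries of a line. Members were chosen again from 2 replicates of every line and read in the replicate left out. A member broad in both other replicates of a line was broad in the held-out one in 489 of 557 cases (87.8%), a member broad in 1 of 2 in 72 of 152 (47.4%), and a member broad in neither in 29 of 389 (7.46%). By line, the first of these shares was 90.3% in R172H, 87.7% in R245W and 85.2% in null. These shares describe libraries of the same line and are not independent of the line's own depth.

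The members broad in all 9 libraries included Ubtf, Ssbp4, Arid2, Efna5, Cpt1a and Cdk6. From here on, a width given for a member or region in a library is that of its widest single peak. Other peaks of the same library may lie beside it. Ubtf, which encodes a factor for transcription of ribosomal RNA genes, was the widest on average. Its widest peak measured 3967, 3978 and 3197 bp in R172H, 4569, 4573 and 4603 bp in R245W, and 3459, 3511 and 3325 bp in null. The widest peak of R245W was wider than that of both others at Ubtf with no overlap. R172H replicate 3 and every null library held 2 peaks there. The outer edges lay 4226 bp apart in R172H replicate 3 and 4608, 4496 and 4513 bp apart in null. Ssbp4, a single-stranded DNA-binding protein gene, measured 4017, 4046 and 3912 bp in R172H, 3708, 3697 and 3668 bp in R245W, and 3452, 4076 and 4016 bp in null. Arid2, a subunit of a SWI/SNF chromatin remodelling complex, measured 3584, 3625 and 3630 bp in R172H, 3694, 3672 and 3711 bp in R245W, and 3750, 3767 and 3768 bp in null. At Arid2 the lines did not overlap, and they stood in the order R172H, R245W, null from narrow to wide. Efna5, a membrane-bound ephrin ligand, measured 3455 to 3794 bp over the 9 libraries, and Cpt1a, which carries out the committed step of long-chain fatty acid import into mitochondria, 3481 to 3818 bp. Cdk6, a kinase that drives entry into the cell cycle, varied little, at 3577, 3572 and 3583 bp in R172H, 3597, 3565 and 3554 bp in R245W, and 3559, 3598 and 3597 bp in null. The remaining members of this group that were at or overlapped a gene were Ptma, Hivep2, Foxo3, Kdm6b, Mnt, Ang/Rnase4, Sox12, Tsc22d2, Foxp1, Efnb2 and Gse1. Of the 21 members broad in all 9 libraries, 16 lay at a properly named gene.

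Some of the members broad in every library had no protein-coding gene. The region at chr17:39843120-39846916 overlaps Rn18s-rs5, annotated as a pseudogene related to ribosomal RNA, and measured 3742, 3766 and 3750 bp in R172H, 3775, 3778 and 3784 bp in R245W, and 3782, 3777 and 3782 bp in null. Its summit pile-up was 3420 to 3963 reads. The region at chr1:24611631-24615371 overlaps the pseudogenes Gm10222 and Gm10925, measured 3692 to 3739 bp, and had a summit pile-up of 4207 to 5729 reads. Reads of near-identical copies elsewhere could be placed on these sequences, so both values are uncertain. The region at chr14:19415727-19419409 has no annotated gene span and measured 3632 to 3677 bp, with a pile-up of 207 to 268 reads. The region at chr19:12009385-12012823, which holds 5 tRNA genes, measured 3195 to 3399 bp.

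Trp53 itself is a member, together with Wrap53, which is transcribed in the opposite direction from the same stretch (chr11:69578799-69581968). It falls outside the rule for named genes and is described because the lines differ at this gene. The widest peak measured 3038, 3059 and 3072 bp in R172H, 1911, 1760 and 1805 bp in R245W, and 2022, 3105 and 3130 bp in null. All 3 R172H libraries and 2 of 3 null libraries were broad, and every R245W library was split in 2. In the split libraries the gap was 335, 299 and 297 bp in R245W and 276 bp in null replicate 1. It lay upstream of the Trp53 start site, from 760 to 424 bp before it in R245W replicate 1. Covered length was 2670, 2602 and 2686 bp in R245W, against 2843, 3105 and 3130 bp in null. The summit pile-up was 426, 454 and 478 reads in R172H, 347, 408 and 378 reads in R245W, and 447, 475 and 437 reads in null, so the promoter was open in the line without p53. Peak positions do not show a point mutation, and the extent of the deleted allele is not given in the sources used here, so these values do not check the genotypes.

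**Figure D3:**
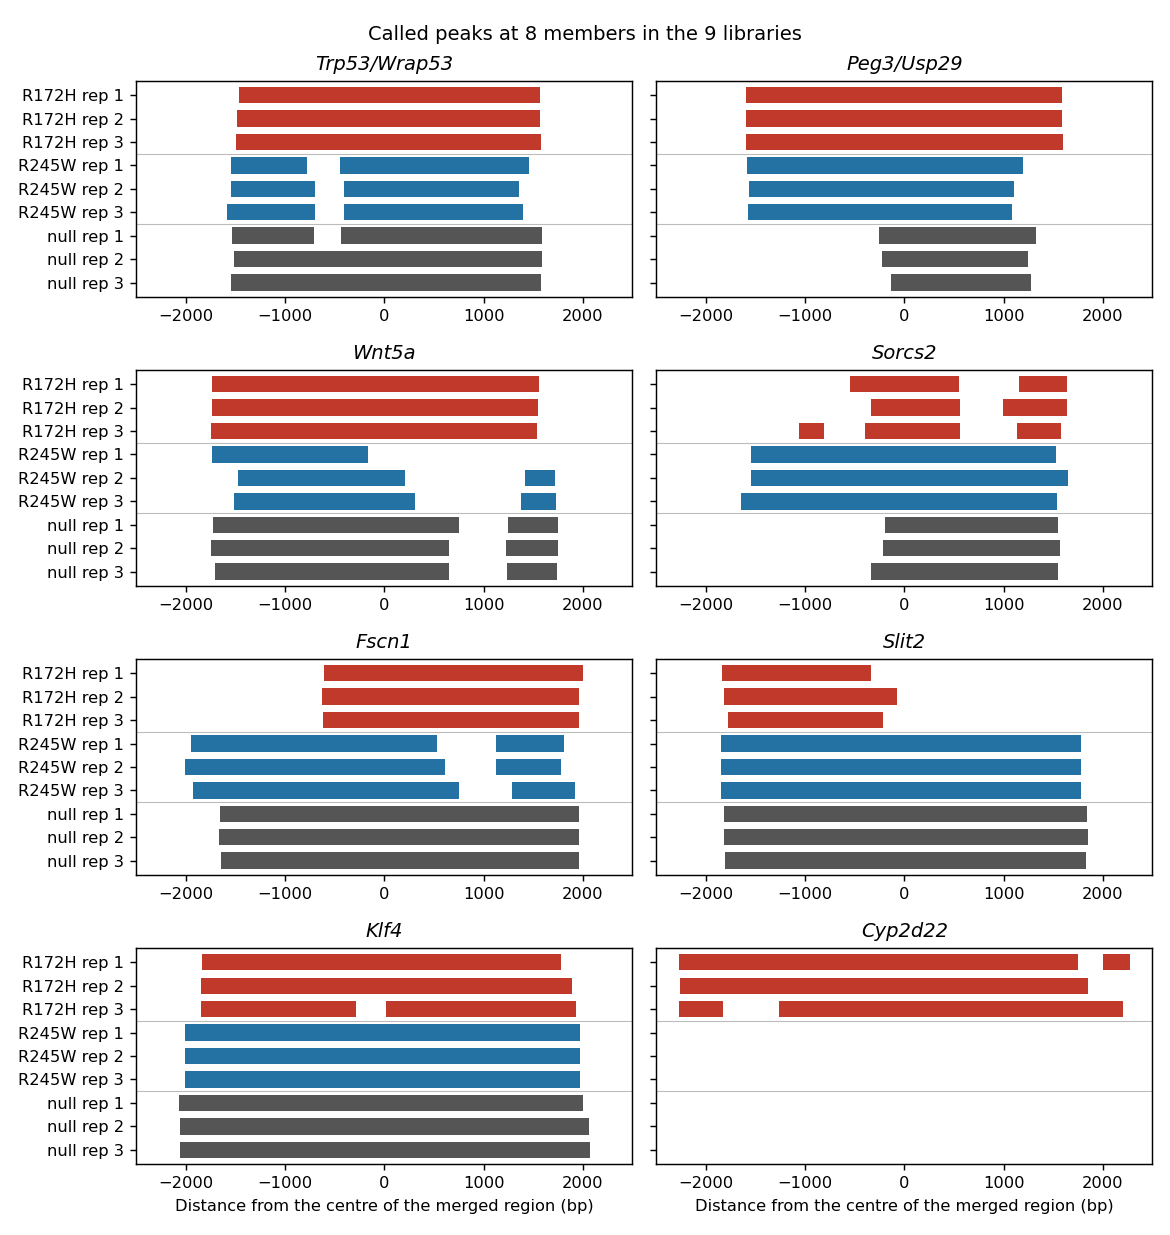
Called peaks (bars) at 8 members by distance from the centre of the merged region (bp), with 1 row per library in the order R172H, R245W, null. Trp53/Wrap53 is 1 peak in all R172H libraries and 2 peaks in all R245W libraries, Slit2 is short in R172H, and Cyp2d22 has peaks in R172H libraries only.

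The 15 members broad in R172H alone included Wnt5a, Ccnd2 and C1qtnf1. Wnt5a, a secreted ligand of non-canonical Wnt signalling, measured 3292, 3290 and 3290 bp in R172H, 1574, 1676 and 1828 bp in R245W, and 2474, 2398 and 2358 bp in null. Its pile-up was also lowest in R245W, at 46, 56 and 44 reads, against 164, 185 and 161 reads in R172H and 128, 150 and 125 reads in null. Ccnd2, which encodes cyclin D2, measured 3515, 3339 and 3463 bp in R172H, 1969, 1959 and 1955 bp in R245W, and 1705, 1583 and 1769 bp in null, and the 6 libraries without the broad form all held several peaks. At Ccnd2 the covered length in R245W (3344, 3486 and 3437 bp) overlapped that in R172H (3515, 3339 and 3463 bp), whereas null covered 3033, 2783 and 2857 bp. The largest gaps in these 6 libraries were only 225 to 404 bp. With gaps of up to 500 bp joined, Ccnd2 was broad in all 9 libraries. C1qtnf1, a secreted protein of the C1q and tumour necrosis factor related family, measured 3373, 3498 and 3461 bp in R172H, 1487, 1581 and 1559 bp in R245W, and 1839, 1645 and 1700 bp in null.

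Some other members of the R172H group overlapped a protein-coding gene but had no listed start site within 1000 bp. For genes with a listed start site the far end was not checked. A region called within a gene, here and below, therefore overlaps it and may lie at its far end. Within Abi1, which encodes an adaptor of the WAVE complex of actin assembly, the region measured 3678, 3809 and 3608 bp in R172H, 722, 694 and 717 bp in R245W, and 957, 1017 and 902 bp in null. Within Slc38a2, an amino acid transporter gene, it measured 3286, 3324 and 3257 bp in R172H, 2988, 1898 and 2217 bp in R245W, and 2510, 2614 and 2139 bp in null. Within Sh3pxd2a, which encodes a scaffold protein of podosomes, it measured 3150, 3241 and 3297 bp in R172H, 1813, 2031 and 1963 bp in R245W, and 1755, 2285 and 1690 bp in null. Width and strength went apart at Sh3pxd2a: the pile-up was 263, 286 and 251 reads in R172H, 351, 414 and 361 reads in R245W, and 566, 626 and 594 reads in null. The region at chr6:4541966-4546176 has no annotated span. Its widest peak measured 3081, 3880 and 3590 bp in R172H, 1532, 946 and 2806 bp in R245W, and 1113, 839 and 1363 bp in null. The R245W libraries held 3, 4 and 2 peaks there, with outer edges 3891, 4031 and 3929 bp apart. Each null library held 3 peaks, with outer edges 3711, 2890 and 3866 bp apart. The other members of this group were at or overlapped Plekha6, Npr3, Rasgrp2, Nol4l, Evc/Evc2, Peg3/Usp29 and Zfp703, with R172H widths of 3009 to 3300 bp. Of the 15 members of the group, 10 lay at a properly named gene.

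Cyp2d22, the widest of this group, and Peg3/Usp29, singled out after its values were seen, differed in strength as well as in width. At Cyp2d22, a cytochrome P450 gene, the widest peak measured 4014, 4116 and 3466 bp in R172H, and no peak was called in the 6 other libraries. The pile-up was 237, 288 and 260 reads in R172H, and the background at the summit was 19.9, 19.1 and 20.8 times the library's most frequent one. Peg3 is a paternally expressed imprinted gene with a zinc-finger product, and Usp29 starts on the opposite strand beside it. The region measured 3189, 3190 and 3191 bp in R172H, 2788, 2663 and 2659 bp in R245W, and 1575, 1467 and 1412 bp in null. Its pile-up was 622, 662 and 618 reads in R172H, 101, 124 and 96 reads in R245W, and 94, 111 and 103 reads in null. The local background at its summit was 29.8, 28.4 and 29.2 times the library's most frequent background in R172H, 3.4, 3.1 and 3.1 times in R245W, and 1.8, 1.9 and 1.9 times in null. The local background thus moved with the pile-up at Peg3/Usp29; its part in the difference was not tested.

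The 10 members broad in R245W alone included Pdgfb, Adgrl3, Sorcs2 and Hmga2. Within Pdgfb, a chain of platelet-derived growth factor, the widest peak measured 3291, 3544 and 3279 bp in R245W, 1596, 2960 and 1512 bp in R172H, and 1233, 1255 and 1219 bp in null. R172H replicates 1 and 3 and null replicates 1 and 2 held 3 peaks each, with outer edges 3508 to 3548 bp apart. Null replicate 3 held 2 peaks, with outer edges 2379 bp apart. At Adgrl3, an adhesion G-protein-coupled receptor, it measured 3245, 3159 and 3163 bp in R245W, 813, 920 and 1838 bp in R172H, and 1920, 2359 and 2138 bp in null. At Sorcs2, a sorting receptor of the sortilin family, it measured 3073, 3192 and 3179 bp in R245W, 1101, 899 and 961 bp in R172H, and 1745, 1781 and 1890 bp in null. In the map of called peaks, the Sorcs2 stretch before the centre is covered in R245W and largely bare in R172H and null. Hmga2, a chromatin architectural protein of embryonic and tumour cells, measured 3317, 3272 and 3202 bp in R245W, 2344, 2675 and 2728 bp in R172H, and 2509, 2560 and 2379 bp in null.

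The other members of this group were at L3mbtl3, Limd2, Mical2, Fstl1, Irs2 and Egr3. L3mbtl3, a chromatin-binding protein with MBT repeats, measured 3307, 3302 and 3290 bp in R245W, 2759, 2667 and 2779 bp in R172H, and 2814, 2657 and 1540 bp in null. Limd2 measured 3071, 3225 and 3258 bp in R245W, 2276, 2316 and 2186 bp in R172H, and 1386, 1587 and 1396 bp in null. Mical2, an enzyme that oxidises actin, measured 3051, 3025 and 3110 bp in R245W, 2020, 2313 and 2318 bp in R172H, and 1436, 1497 and 1409 bp in null. Within Fstl1, a secreted glycoprotein gene, the 6 other libraries lay between 2696 and 2916 bp, against 3073, 3121 and 3183 bp in R245W. Irs2, an adaptor of the insulin receptor, measured 3070, 3048 and 3037 bp in R245W, 2880, 2887 and 2947 bp in R172H, and 2993, 2898 and 2960 bp in null. Egr3, an immediate early transcription factor, measured 3020, 3020 and 3007 bp in R245W, 2921, 2959 and 2825 bp in R172H, and 2978, 2965 and 2916 bp in null, so its lowest R245W library (3007 bp) and its highest other library (2978 bp) lay close to the threshold.

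The 5 members broad in null alone were at Fscn1, Cdr2l, Sema5a, Mtcl1 and Sorbs3. Fscn1, which encodes the actin-bundling protein fascin, measured 2608, 2588 and 2581 bp in R172H, 2485, 2614 and 2685 bp in R245W, and 3619, 3622 and 3604 bp in null. Each R245W library held 2 peaks at Fscn1, with outer edges 3765, 3787 and 3846 bp apart, farther than the null peaks reached. Sema5a, a semaphorin guidance protein, measured 2352, 2257 and 2285 bp in R172H, 2435, 2498 and 2620 bp in R245W, and 3164, 3186 and 3234 bp in null. Mtcl1, a microtubule crosslinking factor, measured 2133, 2059 and 2035 bp in R172H, 2104, 2282 and 2266 bp in R245W, and 3119, 3172 and 3023 bp in null. At Mtcl1 each R245W library also held 2 peaks, with outer edges 3146, 3191 and 3072 bp apart. The widest peak was wider in every null library than in every library of both mutant lines at these genes. This follows from the way the group was picked. Cdr2l measured 2649, 2672 and 2445 bp in R172H, 2818, 2899 and 2879 bp in R245W, and 3604, 3611 and 3086 bp in null. Within Sorbs3, the gene of the adhesion protein vinexin, the region measured 1362, 2232 and 1518 bp in R172H, 1204, 2247 and 2165 bp in R245W, and 3070, 3132 and 3097 bp in null. Sorbs3 also had its highest pile-up in null, at 433, 396 and 438 reads, against 208, 206 and 208 reads in R172H and 171, 199 and 187 reads in R245W.

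Among members broad in both mutant lines and not in null, Sgms1, a sphingomyelin synthase gene, had the shortest peaks in null. It measured 3092, 3117 and 3077 bp in R172H, 3237, 3297 and 3203 bp in R245W, and 776, 713 and 872 bp in null. Its pile-up was 407, 460 and 440 reads in R172H, 380, 391 and 397 reads in R245W, and 97, 105 and 112 reads in null. Kif26b, a kinesin family gene, measured 3707, 3695 and 3734 bp in R172H, 3850, 3860 and 3881 bp in R245W, and 2631, 2605 and 2639 bp in null. Here the pile-up did not follow the width: it was 226, 232 and 216 reads in R172H, 257, 291 and 277 reads in R245W, and 257, 295 and 276 reads in null. Tbkbp1, which encodes a partner of the kinase TBK1, measured 3066, 3121 and 3173 bp in R172H, 3481, 3306 and 3101 bp in R245W, and 1526, 1387 and 1589 bp in null. Fzd7, a Wnt receptor, measured 3115, 3172 and 3212 bp in R172H, 3207, 3149 and 3084 bp in R245W, and 2036, 2024 and 1963 bp in null. The other members of this pattern were Cdh2, Tgif2 and Iqschfp/Schip1, whose null libraries lay at 2832 to 2954 bp.

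R245W and null without R172H shared Slit2, Col5a1, Ctbp2 and 2 regions without a protein-coding gene. Slit2, a secreted guidance ligand for Robo receptors, measured 1500, 1746 and 1560 bp in R172H, 3623, 3623 and 3630 bp in R245W, and 3650, 3669 and 3634 bp in null. The peak stayed single in R172H and ended within the first part of the region, while its pile-up of 311, 243 and 248 reads overlapped the 283, 315 and 288 reads of R245W. Col5a1, a chain of fibrillar collagen V, measured 1911, 2476 and 1922 bp in R172H, 3983, 4011 and 3894 bp in R245W, and 4027, 3994 and 3960 bp in null, with 2 peaks in each R172H library. Within Ctbp2, a transcriptional corepressor gene, the region measured 2669, 2669 and 2709 bp in R172H, 3223, 3114 and 3150 bp in R245W, and 3001, 3061 and 3014 bp in null. The region at chr8:84200616-84204459 measured 1386, 1488 and 1552 bp in R172H, 3564, 3585 and 3573 bp in R245W, and 3661, 3676 and 3718 bp in null. R172H and null without R245W shared Eno3/Pfn1, whose R245W libraries measured 2984, 2984 and 2961 bp, and the region at chr9:124422537-124425918, with 2766, 2780 and 2763 bp in R245W.

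The Wnt list of 35 genes had 5 at a member: Ctnnb1, Fzd2, Fzd7, Wnt5a and Wnt9a (14.3%), beside 126 of 21900 protein-coding genes (0.575%) and 18 of the 384 annotated genes of all lists together (4.69%). By role these are a ligand pair, a receptor pair and beta-catenin, the pathway's transcriptional effector. Wnt9a, the other ligand, measured 3011, 2972 and 3032 bp in R172H, 2379, 2353 and 2482 bp in R245W, and 2503, 2375 and 2395 bp in null. Fzd2 measured 3104, 3004 and 2933 bp in R172H, 2749, 2785 and 2626 bp in R245W, and 1739, 1756 and 1762 bp in null. Both receptors were thus shortest in null, and both ligands were widest in R172H. Ctnnb1 measured 1746, 1749 and 1600 bp in R172H, 3671, 1738 and 3734 bp in R245W, and 1647, 2453 and 1667 bp in null. Several peaks were called at Ctnnb1 in 7 of 9 libraries.

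The AP-1 and immediate early list of 27 genes had 4 at a member (14.8%, beside 0.575% of protein-coding genes): Egr3, Jun, Junb and Klf4. Jun, a subunit of the AP-1 transcription factor, measured 2843, 2695 and 2695 bp in R172H, 3129, 2945 and 3077 bp in R245W, and 3608, 3660 and 3602 bp in null. Klf4, a zinc-finger transcription factor, measured 3620, 3738 and 1917 bp in R172H, 3986, 3979 and 3979 bp in R245W, and 4072, 4130 and 4130 bp in null. In both genes null was the widest line with no overlap with R172H. Junb, another AP-1 subunit, measured 2997, 3018 and 3016 bp in R172H, 3083, 2981 and 3024 bp in R245W, and 2953, 2945 and 2949 bp in null, so all its libraries lay near the threshold.

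The cell cycle list had 3 of 22 genes at a member (13.6%, beside 0.575% of protein-coding genes): Ccnd2, Cdk6 and E2f3, a transcription factor of the G1 to S transition. The osteosarcoma driver list had 2 of 26 (7.69%), Trp53 and Mycn. Mycn, a transcription factor of the Myc family, measured 2188, 3028 and 3087 bp in R172H, 951, 1815 and 758 bp in R245W, and 766, 1044 and 950 bp in null. Foxp1 was 1 of 28 mesenchymal transcription factors at a member, and Col5a1 1 of 30 matrix and adhesion genes. None of the 24 osteoblast lineage genes, 45 limb and skeletal patterning factors, 30 p53 target genes or 17 structural RNA hosts was at a member. Only 0.575% of all protein-coding genes were at a member, so lists of these sizes would hold few or none. Nothing is read from their absence. Of the 10 osteoblast markers, 8 were open at a gene end in every library, and Ibsp and Bglap in none. Of 6 smooth muscle and pericyte markers, 3 to 4 were open in R172H libraries, 5 in each R245W library and 3 in each null library, with Acta2, Myh11 and Tagln open in all 9. Of 7 macrophage and blood markers 2 to 3 were open, with Cd68 and Spi1 open in all 9 libraries and Ptprc, Adgre1, Itgam and Tyrobp in none. Of 6 endothelial markers Erg was open in every library and the others in none. Of 6 epithelial markers 1 to 3 were open, with Krt8 open in all 9 libraries and Cdh1, Krt18 and Krt5 in none. No marker was at a member.

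Further ligands and receptors at members were chosen for description after their values were seen. Gdnf, a neurotrophic ligand of Ret, averaged 1868 bp in R172H, 2645 bp in R245W and 3598 bp in null. Ephb2, an ephrin receptor, averaged 1931 bp in R172H, 2967 bp in R245W and 3257 bp in null. Tgfb1, the gene of transforming growth factor beta 1, averaged 2621 bp in R172H, 3244 bp in R245W and 3220 bp in null. Pcdh7, a protocadherin, averaged 4205 bp in R172H, 2291 bp in R245W and 1986 bp in null. By these means the first 3 were shortest in R172H and Pcdh7 was widest there. The means at Gdnf, Tgfb1 and Pcdh7 include split libraries. Gdnf was split in every R172H library, with gaps of 1090 to 1179 bp. It was also split in R245W replicates 1 and 2 (314 and 477 bp) and null replicate 1 (292 bp). Tgfb1 was split only in R172H replicate 3, by a gap of 256 bp, so its lower R172H mean may rest on that library. Ranbp3l had no peak in R172H, measured 883, 792 and 791 bp in R245W, and 2412, 3094 and 3106 bp in null. Lonrf3, on the X chromosome, was weak in R172H, with a pile-up of 32, 31 and 39 reads, against 267, 296 and 294 reads in R245W and 238, 253 and 236 reads in null.

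Covered length, the summed length of all peaks in a region, was set beside the same count over the 36473 regions called in all 9 libraries, although width chose the members and nothing is read from these counts. Every R172H library covered more than every R245W library at 32 of 144 members (22.2%), against 13.3% of regions. R172H covered more than null at 44 members (30.6%, against 21.6%), and R245W covered more than null at 65 (45.1%, against 31.8%). In the other direction R245W covered more than R172H at 74 (51.4%, against 37.7%), null more than R172H at 44 (30.6%, against 27.9%), and null more than R245W at 26 (18.1%, against 12.9%).

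Summit strength was not used by the rule. It was taken as the percentile of a region's highest −log10 q within its own library's list. The median member lay at the 80.1st to 85.9th percentile over the 9 libraries, against 68.2 to 74.2 for regions called in all 9, so the median member ranked above the median of these regions in each library. The next narrower regions were as strong. By the second widest peak, the median of the highest percentile was 89.1 from 2000 to under 2500 bp, 88.3 from 2500 to under 3000 bp and 88.8 at members. The lists differ in length, so ranks are not compared between lines.

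The background at the summit, relative to the library's most frequent one, was higher in every R172H library than in every R245W library at 96 of 144 members (66.7%), against 42.3% of regions, and higher than in every null library at 77 (53.5%), against 41%. R245W was above null at 57 members (39.6%), against 37%, and above R172H at 42 (29.2%), against 37.7%. Null was above R172H at 51 (35.4%), against 38.2%, and above R245W at 65 (45.1%), against 39.9%. A peak in all 3 libraries of 1 line and in none of another was rare at members, since 144 were called everywhere: it occurred at Cyp2d22 for R172H over R245W (1 member, against 11.5% of all regions) and over null (1, against 14.5%), at Ranbp3l for R245W over R172H (1, against 13.8%) and null over R172H (1, against 10.3%), and at 0 members for R245W over null (10%) or null over R245W (4.03%).

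Members lay at genes more often than other regions. A region was at a gene when it lay within 1000 bp of a protein-coding start site, or of a gene end where no start site was listed. Of the 146, 114 did so (78.1%, exact 95% interval 70.5 to 84.5, counting error only), against 32.0% of regions called in all 9 and 12.6% of all regions. Long regions reach a gene more easily, so the summit of the strongest peak was also used: it lay within 1000 bp of a gene at 60.3% of members, 30.3% of regions called in all 9, and 11.5% of all regions. By the second widest peak over the libraries, the share at a gene was 3.32% under 500 bp, 31.6% from 1000 to under 1500 bp, 68.4% from 2000 to under 2500 bp, 76.5% from 2500 to under 3000 bp and 78.1% at 3000 bp or more. The summit share was 60.9%, 66.1% and 60.3% in those last 3 classes, so it was no higher at members than in the narrower class next to them. Properly named genes stood at 111 members, with 8 members at 2 or more genes. Of the other 35, 19 overlapped a protein-coding span and 16 lay outside any.

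**Figure D4:**
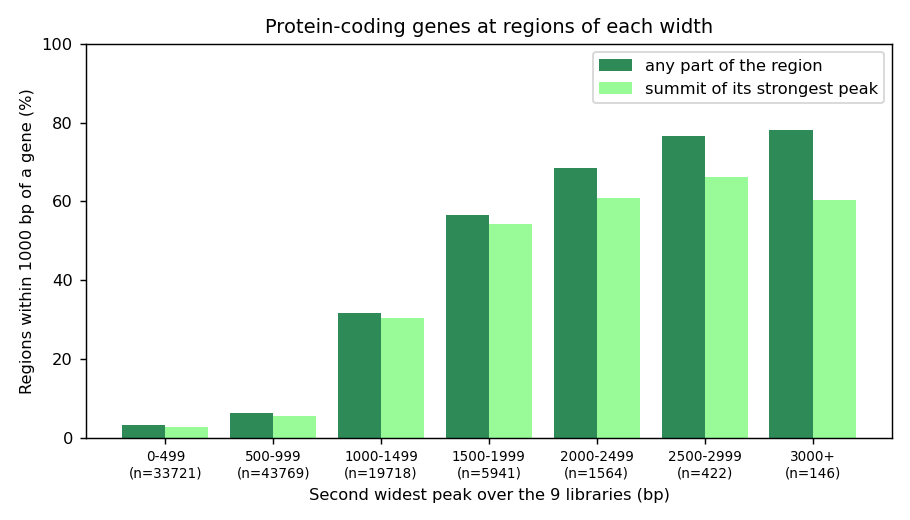
Share of merged regions within 1000 bp of a protein-coding start site, or of a gene end where no start site was listed (vertical axis, %). Regions are classed by the second widest peak over the 9 libraries (horizontal axis, bp, with the number of regions). Shares are for any part of the region and for the summit of its strongest peak. The share for any part reaches 78.1% in the 146 members, and the summit share lies between 60.3% and 66.1% from 2000 bp on.

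A start site lay inside 85 members. The region reached a median of 2088 bp downstream and 1508 bp upstream of it, and the downstream arm was longer at 58 of them (68.2%). Over 9003 regions called in all 9 with a start site inside, the medians were 827 and 623 bp, and the downstream arm was longer at 68.4%. The members thus extended both ways, in the same proportion of regions as shorter ones. The arms were 130 bp upstream and 3200 bp downstream at Npr3, which had the shortest upstream arm, and 3823 and 306 bp at Ssbp4, which had the shortest downstream arm. Slit2 reached 406 bp upstream and 3294 bp downstream, and Cdk6 2689 and 918 bp. At Trp53 the arms were 1560 and 1609 bp.

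Promoter sequence was also not used by the rule. Windows with the start site inside a member numbered 113, for 92 genes, and held a median of 24 CG dinucleotides and 66% G and C. The 11228 windows in regions called in all 9 held 22 and 62.3%, and all 21238 windows held 13 and 56.3%. At least 20 CG dinucleotides were present in 66.4% of the members' windows, 60.7% of those in regions called in all 9, and 35.9% of all. On this scale Slit2 and Cdk6, printed above, lie on the rich side of the members and Trp53, Peg3 and Jun on the poor side.

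**Figure D5:**
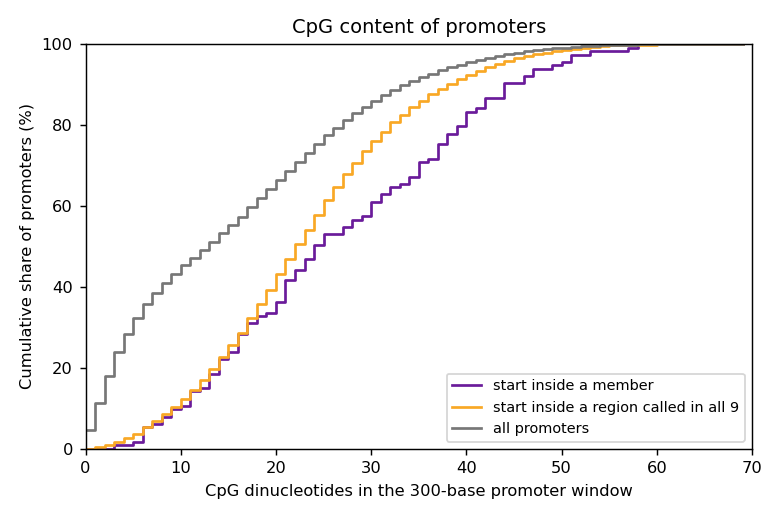
Cumulative share of promoter windows (vertical axis, %) by their number of CG dinucleotides (horizontal axis) for starts inside a member (113), starts inside a region called in all 9 libraries (11228) and all promoters (21238). The medians are 24, 22 and 13, and the members' curve is the lowest of these curves up to 57 CG dinucleotides.

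Of 6 motifs searched on both strands, TATAAA, the core of the TATA box, was found in 15 of the 113 members' windows (13.3%), against 6.01% in regions called in all 9 and 12.6% of all promoters. Trp53, Cdk6 and Slit2 were among these. A match could lie anywhere in the window and on either strand, so it does not show a TATA box. In the Trp53 window the match lies on the opposite strand, at the end farthest from the start site. GGGCGG, a match to Sp1 family sites, was in 77.0%, 69.4% and 46.2% of these sets in the same order. CCAAT was in 26.5%, 38.0% and 38.2%, CACGTG in 15.0%, 10.4% and 7.84%, TGACTCA in 2.65%, 3.36% and 4.66%, and TGTGGT in 4.42%, 11.0% and 15.0%. GGGCGG and CACGTG were thus more frequent in the members' windows than in both other sets and CCAAT and TGTGGT less frequent, as a description without a test. A match is no evidence of binding.

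Chromosome 11 held 19 of the 146 members (13.0%), against 6.82% of all regions, and chromosome 19 held 10 (6.85%, against 3.13%). Chromosome 16 held 1 member and the Y chromosome none. Trp53/Wrap53, Ubtf, Fzd2, Wnt9a, Limd2, Tbkbp1, Cdr2l and C1qtnf1 were among those on chromosome 11. The members nearest the threshold were Baz2a and a region within Ralgds, with a second widest peak of 3000 bp, and Fzd2, with 3004 bp. The nearest regions outside were Tgif1 at 2994 bp, Zfp651 at 2992 bp and Zfp827 at 2991 bp.

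Peak width over the whole lists was compared as a value that does not rest on the members. The median width was 653, 676 and 650 bp in R172H, 682, 690 and 711 bp in R245W, and 683, 702 and 682 bp in null. The spread of the 3 line means was 18.7 bp (SD), with an exact one-sided permutation p of 0.0357 over 280 arrangements. This call was lost in 8 of 9 fits without 1 library (all except without R172H replicate 2), with p from 0.025 to 0.125. Between pairs, R172H was lower than null by 29.3 bp in 3 of 3 libraries (difference −29.3, exact two-sided permutation p = 0.1, the smallest possible), and lower than R245W in 3 of 3 (difference −34.7, exact p = 0.1), while R245W and null differed by 5.33 bp (exact p = 0.7). With lists of equal length R172H minus null was 23.7 bp (exact p = 0.3), and without R245W replicate 3 R245W minus null was −3 bp, so both directions turned. R172H, the line with the lowest median width, held 15 of the members broad in all 3 libraries of a single line, against 10 in R245W and 5 in null. Counted from 2 or 3 libraries of a single line, R172H and R245W held 24 each and null 12.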

How the data were processed

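Each of the 9 libraries had 1 deposited peak list. The submitters' processing notes name MACS2 2.1.0, Bowtie 1.1.2, Trimmomatic 0.33, bcl2fastq 2.17 and deepTools, with build GRCm38. Settings, any read shifting and the treatment of reads with several matches, not given in the sources used here, may affect widths and pile-ups. The authors' deposited columns are peak edges, a score, the fold (a ratio to the local background), and −log10 p and −log10 q of the summit, used only to describe, rank or filter peaks within a list. Read depth is unknown; summit pile-up and background were recovered by solving fold and −log10 p together, which was tested on simulated data.

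Genes came from RefSeq GRCm38.p6 tables, by start site for 17492 of 21900 protein-coding genes and by gene ends otherwise. The members and gene lists were chosen with earlier results of these data known. By mean width, the rule for named members took the 8 widest broad in all 9 libraries and the 8 widest broad in each line alone. It also took the 4 widest for each pair of lines, list genes broad in 1 line alone, and 3 regions on each side of the threshold. Other list genes at a member, the remaining members of these patterns and Trp53 were described beyond this rule. Some further members were chosen after their values were seen, as stated where they are named. Median widths were compared by exact permutation tests over libraries. Alternatives were the width, the number of libraries, joined gaps, a stricter q, equal list lengths and an equal number of widest peaks per library. Others were autosomes, a replicate block, and leaving out each library. Software was Python 3.11.15 with scipy 1.17.1, matplotlib 3.10.9, numpy 2.4.6 and pandas 2.3.3. Some list genes are not reported here.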

Additional observations from a re-analysis of the deposited data

How the results depend on the processing

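At 2500 bp or more there were 568 members, 26 broad in R172H alone, 49 in R245W alone, 16 in null alone and 93 in all 9 libraries; at 4000 bp or more there were 8, with 0, 1, 1 and 0, and 100% at a gene. With gaps of up to 500 bp joined, chosen after seeing the data, there were 278 members, 25 in R245W alone, 10 in null alone and 39 in all 9. Leaving out 1 library gave 135 to 144 members, 15 to 20 in R172H alone, 10 to 16 in R245W alone, 5 to 10 in null alone, 21 to 23 in all remaining libraries, and 76.8% to 80.7% at a gene. The spread of median width was 15.9 to 23.3 bp without 1 library, 15.8 bp (exact permutation p = 0.0893) at −log10 q of 5 or more, and 18.7 bp with a replicate block (exact permutation p = 0.111). Correlations between libraries of different lines were used only to look for pairing by replicate number. They were −0.00514 to 0.0124 over 9 same-numbered pairs and −0.0244 to 0.0168 over 18 other pairs. These correlations do not measure how alike the libraries are, since 36473 regions were called in all 9. Depth did follow the numbers: in every line the most frequent background pile-up was lowest in replicate 1 and highest in replicate 2. Replicate 2 also had the longest peak list of each line. These values do not settle whether the numbers pair the samples. R172H minus null turned to 23.7 bp (exact p = 0.3) with lists of equal length, and R245W minus null to −3 bp without R245W replicate 3 (−3 to 11.8 bp over such fits); R172H minus null stayed between −37.5 and −22.8 bp and R172H minus R245W between −42.8 and −26.3 bp. The causes were not tested. The most frequent background pile-up, a guide to depth and not read depth itself, averaged 4.98 reads in R172H, 6.06 in R245W and 5.41 in null. Depth may limit what counts of broad peaks show, and its part was not tested.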
